A study of Rattus norvegicus with 12 samples.

Results

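Connexins are the proteins of gap junctions, the channels that join the cytoplasm of neighbouring cells, and 5 of their genes were followed here in the aorta and the semilunar valves of newborn and adult rats: Gja1 (connexin 43), Gja4 (connexin 37), Gja5 (connexin 40), Gjb2 (connexin 26) and Gjc1 (connexin 45). They were taken as every probe set, the group of short probes that reads 1 transcript, whose single annotated symbol is one of these genes. All 5 were on the array, among 14217 genes that a single symbol names. They had 8 of the 31099 probe sets: 3 for Gja1, 2 for Gja5 and 1 for each other gene. RNA came from Wistar rats, on 12 arrays in 4 groups of 3 by sample title. Neonatal aorta was the proximal part of the vessel and neonatal valve the aortic and pulmonary valves together, both taken within 24 h of birth. Adult aorta and adult valve were the same parts from grown rats labelled male, with no age stated in the labels. No group carried a treatment or an altered allele, and the labels do not say how many animals stand behind an array. The p-values therefore cover the scatter among the deposited samples, which may be technical.

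In a gap junction, connexin subunits form a hemichannel in each membrane, and the hemichannels of adjacent cells dock to let ions and small metabolites pass. In arteries, endothelium is known for connexins 37, 40 and 43, smooth muscle for connexins 43 and 45, while working heart muscle relies on connexin 43 and atrial muscle and the conduction system on connexins 40 and 45. Connexin 26 is known from epithelia, where it is often found with connexin 30, the product of Gjb6.

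The start regions of 3 of the genes are printed because the first 2 changed in opposite directions with age in the aorta and the third belonged to the gene with the widest spread between arrays. RefSeq entries (build GRCr8) were found for 4 of the 5 genes. Each sequence runs 5′ to 3′ on the gene's own strand from 250 bases before to 50 bases after the annotated start, and capitals mark matches to the motifs searched.
Gja1 promoter, chr20:36302314-36302613, + strand: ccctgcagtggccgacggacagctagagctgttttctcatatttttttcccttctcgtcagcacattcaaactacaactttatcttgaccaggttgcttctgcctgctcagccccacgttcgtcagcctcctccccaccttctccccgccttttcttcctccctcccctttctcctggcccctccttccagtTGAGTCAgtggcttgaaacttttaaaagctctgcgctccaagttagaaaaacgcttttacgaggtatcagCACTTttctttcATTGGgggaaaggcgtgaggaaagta
Gja4 promoter, chr5:144920275-144920574, - strand: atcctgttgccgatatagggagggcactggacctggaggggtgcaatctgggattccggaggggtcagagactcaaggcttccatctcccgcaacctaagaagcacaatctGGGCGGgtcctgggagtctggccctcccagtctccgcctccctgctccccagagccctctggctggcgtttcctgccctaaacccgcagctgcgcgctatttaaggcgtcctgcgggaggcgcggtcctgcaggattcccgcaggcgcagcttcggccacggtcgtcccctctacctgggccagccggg
Gjb2 promoter, chr15:35381904-35382203, - strand: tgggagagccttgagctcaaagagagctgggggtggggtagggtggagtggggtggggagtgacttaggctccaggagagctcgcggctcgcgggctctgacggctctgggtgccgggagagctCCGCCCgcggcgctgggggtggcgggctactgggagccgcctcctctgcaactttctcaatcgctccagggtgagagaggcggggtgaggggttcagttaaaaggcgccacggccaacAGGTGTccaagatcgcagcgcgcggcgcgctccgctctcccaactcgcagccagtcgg
The 6 motifs searched on both strands were the GC box (GGGCGG), the TATA box (TATAAA), the CCAAT box, AP-1 (TGANTCA), a T-box core (AGGTGT) and the NKX2-5 core (AAGTG). The Gja1 window held 1 AP-1 match, a motif found in 7.33% of the 33469 promoters of this length. It also held 1 CCAAT match (37.5% of promoters) and 1 NKX2-5 core (46.2%). The Gja4 window held 1 GC box (33.1% of promoters) and no match to the other motifs. The Gjb2 window held 1 GC box and 1 T-box core (13.6% of promoters). The shares of G and C were 50.3% for Gja1, 65.3% for Gja4 and 68.0% for Gjb2, against a median of 51.7%. A match is a run of letters and was not tested as a binding site.

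Some arrays stood apart or went against their labels. On 6 arrays the description and the tissue entry name another group than the title: those titled adult aorta are called neonatal valve there, and those titled neonatal valve adult aorta. Groups follow the title, which the source name matches. Acta2, a smooth muscle actin gene, went with the title on these 6 arrays. It read 3506 to 32958 on those titled adult aorta and 589 to 713 on those titled neonatal valve. On neonatal aorta it read 6890 to 11154 and on adult valve 134 to 2123. Xist read 15.9 to 25.2 on those titled adult aorta and 10998 to 15809 on those titled neonatal valve. By title, the valve arrays had Xist signals of 10998 to 18362, the adult ones among them labelled male, and the aorta arrays had 5.08 to 297. Under the tissue entry Xist would split the arrays by age as cleanly, so it cannot choose between title and tissue entry. The 3' to 5' ratio of beta-actin, a measure of how evenly a transcript is covered, lay between 1.40 and 2.59 in aorta and between 7.24 and 13.99 in valve. On neonatal aorta 2 and 3 the added bacterial control RNAs gave almost no signal. Their 3' probe sets read 2.52 to 54.6 there, and a signal in this range is called the level of absent control RNAs below. Summed signals of squamous epithelium markers (9 of 12 listed genes on the array) were 184740 on adult aorta 1 and 69670 on neonatal aorta 2, against 723 to 11927 on the other 10 arrays. Adult aorta 1 also had 193850 for skeletal muscle markers (11 of 12), against 4630 to 36113 elsewhere. Neonatal valve 3 had 26416 for thymocyte markers (6 of 10), against 378 to 2146 elsewhere. Endothelial markers were detected throughout, with 7 to 9 of the 9 genes on the array above the median signal on every array, and so were smooth muscle markers (7 or 8 of 8) except on adult valve 3 (3 of 8).

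With age in the aorta, Gja1 rose and Gja4 and Gjc1 fell. Signals are MAS5 units, the linear brightness of a probe set as deposited, and differences are in log2 with the standard error (SE) of a limma fit to all 12 arrays. A probe set entered the test if at least 3 arrays had a signal over 171.9, the median over the whole table, and called at an adjusted p under 0.05. Of the 8 connexin probe sets 7 were tested and 3 were called, 1 higher and 2 lower in the adult aorta. Of all 18552 probe sets tested, 7.31% were called (1.94% higher and 5.37% lower). The groups of these 3 did not overlap, while those of the other 4 did, and 30.9% of all probe sets tested had groups that did not overlap. The median difference of the 7 was -0.62, and that of all tested was -0.08.

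The brightest Gja1 probe set, 1372002_at, had signals of 9348, 8734 and 8362 on neonatal aorta 1, 2 and 3. On adult aorta 1, 2 and 3 it had 19095, 14530 and 24489. Every adult array lay above every neonatal one, and the 3 neonatal arrays lay close together. The rise was 2.15-fold (1.11 ± 0.21 SE, n = 3 in each group, limma adjusted p = 0.011). Its size depended on the scaling: with quantile normalization it was 0.69 ± 0.19 (limma adjusted p = 0.043). Smooth muscle markers (8 of 8 listed genes on the array) had a median difference of 1.02 with 0 called. Their sums were 32084 to 49424 on neonatal aorta arrays and 37507, 100614 and 135630 on adult aorta 1, 2 and 3. Their part in the Gja1 rise was not tested. The second Gja1 probe set, 1369640_at, had 886, 1182 and 1388 on the neonatal and 2478, 1347 and 1284 on the adult aorta arrays. Its groups overlapped, and its difference of 0.52 ± 0.35 had the same sign but did not pass (limma adjusted p = 0.41). The third, 1369639_at, read 14.4 to 65.2 over all 12 arrays. It was above the threshold on none of them and was not tested.

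Gja4, which encodes an endothelial connexin of arteries, had signals of 1790, 1756 and 2024 on the neonatal aorta arrays. The adult aorta arrays had 253, 633 and 502. Adult aorta 1 was the lowest, and no adult array reached the neonatal range. The fall was 4.29-fold (-2.10 ± 0.37 SE, limma adjusted p = 0.0082). Endothelial markers summed to 10201 to 12803 on neonatal and 4594 to 9687 on adult aorta arrays, also with the lowest sum on adult aorta 1. Of the 9 on the array, 1 fell and 0 rose, with a median difference of -0.95. The one that fell was Kdr, a VEGF receptor gene (-1.58 ± 0.43, limma adjusted p = 0.049). Their part in the Gja4 difference was not tested, and in tissue RNA fewer cells of a type and less RNA per cell cannot be told apart. Without adult aorta 1 the Gja4 difference was -1.72 ± 0.33 (limma adjusted p = 0.0081).

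Gjc1, a connexin of smooth muscle and of the cardiac conduction system, had 1631, 1289 and 1440 on the neonatal aorta arrays. It had 461, 617 and 824 on the adult ones. The groups did not overlap, and the fall was 2.35-fold (-1.23 ± 0.30 SE, limma adjusted p = 0.031). Cardiac muscle markers (11 of 12 listed genes on the array) summed to 48563 to 77446 on neonatal and to 1193 to 30842 on adult aorta arrays, with 7 of the 11 lower and 0 higher. On adult aorta 1 one gene, Myl3, a light chain that slow skeletal muscle also uses, made up 29462 of that sum of 30842. The smooth muscle sums are given above with Gja1. The part of these markers in the Gjc1 difference was not tested.

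**Figure D1:**
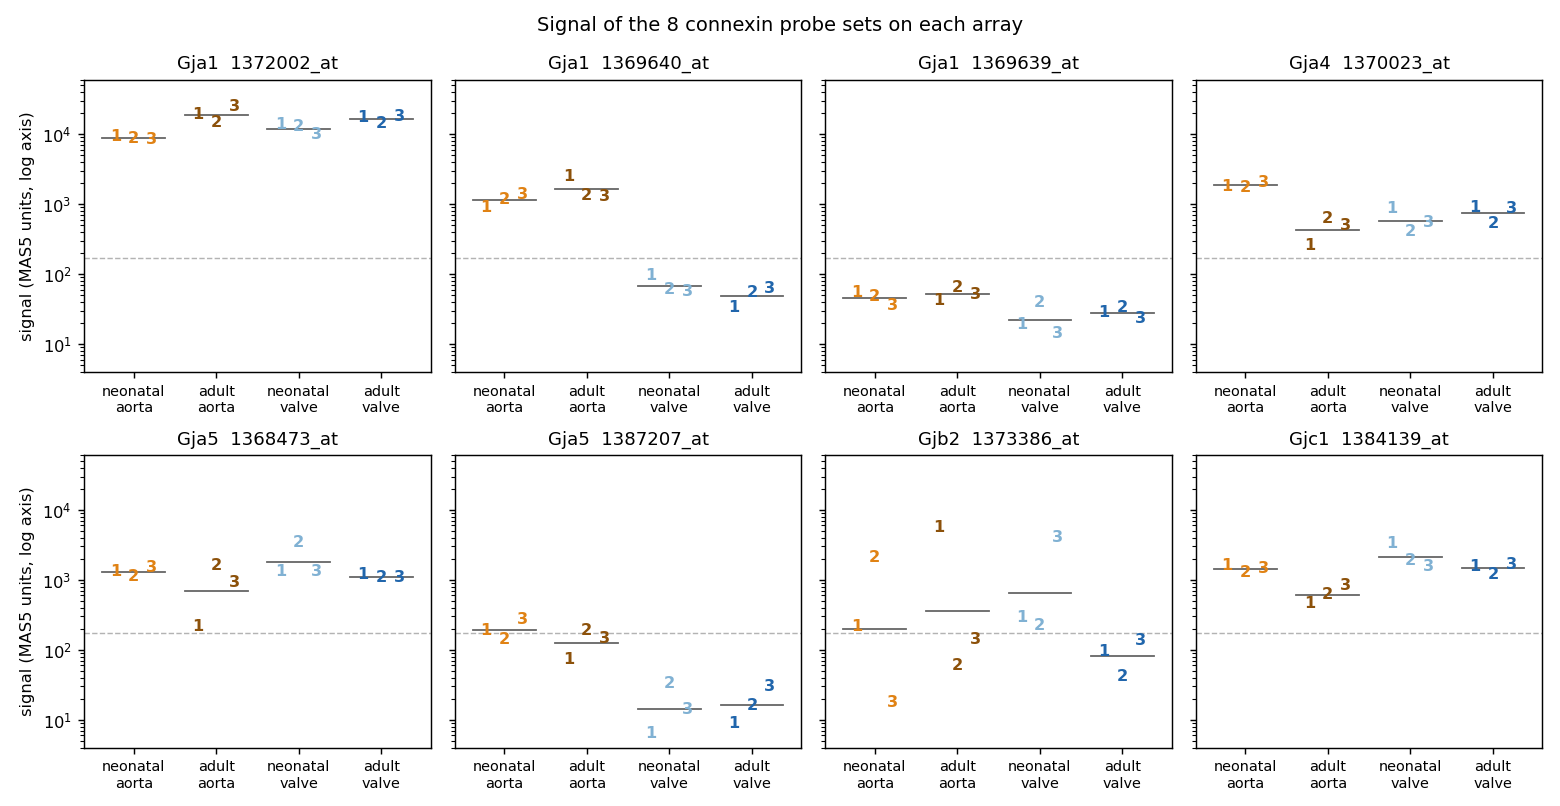
Signal in MAS5 units (log axis) of the 8 connexin probe sets on each array, by group. Digits are replicate numbers, grey bars geometric means of 3 arrays and the dashed line the filter threshold of 171.9, the median signal. The Gja1 probe set 1369640_at and the Gja5 probe set 1387207_at lie below the line on all 6 valve arrays, and Gjb2 is high on 1 array in each of 3 groups.

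Gja5, the connexin of arterial endothelium and atrial muscle, was not called with age in the aorta. Its brighter probe set, 1368473_at, had 1305, 1103 and 1509 on the neonatal and 218, 1618 and 926 on the adult aorta arrays. The adult arrays spread over both sides of the neonatal range, with adult aorta 1 far below. The difference was -0.91 ± 0.60 (limma adjusted p = 0.40), and without adult aorta 1 it was -0.08 ± 0.39. The dimmer probe set, 1387207_at, had 192, 142 and 270 and then 73.3, 187 and 147, also overlapping (-0.62 ± 0.76, limma adjusted p = 0.68).

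The Gja1 and Gjc1 calls in the aorta depended on the arrays kept. The Gja4 call held when any 1 aorta array was left out (-2.38 to -1.72, limma adjusted p = 0.0081 to 0.043). The Gja1 call was lost without neonatal aorta 2 or 3 (1.10 and 1.07, limma adjusted p = 0.051 and 0.055). The Gjc1 call was lost when neonatal aorta 1, 2 or 3 or adult aorta 2 was left out (-1.31 to -1.14, limma adjusted p = 0.077 to 0.11). With the arrays that lacked the control RNAs as a separate term, which sets neonatal aorta 1 alone against the adult arrays, 0 of the 7 were called. The differences were then -2.05 for Gja4, 1.02 for Gja1 and -1.40 for Gjc1 (limma adjusted p = 0.19, 0.24 and 0.25).

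With age in the valve, no connexin probe set was called by limma, against 9.21% of all probe sets tested (4% higher and 5.21% lower). At an unadjusted p under 0.05 there were also 0 of the 7. The groups of 3 of the 7 did not overlap, against 33.4% of all tested. The Gja1 probe set 1372002_at had 13606, 12913 and 9960 on neonatal valve 1, 2 and 3 and 17174, 14252 and 18190 on the adult valve arrays. Every adult array was above every neonatal one, as in the aorta, with a difference of 0.45 ± 0.21 (limma adjusted p = 0.20). The probe set 1369640_at had the opposite sign (-0.51 ± 0.35, limma adjusted p = 0.39), with overlapping groups under the threshold on every valve array. Gja4 had 881, 413 and 540 on the neonatal and 905, 533 and 859 on the adult valve arrays, which overlapped (0.36 ± 0.37, limma adjusted p = 0.58). Endothelial markers summed to 8969 to 12594 on neonatal and 12956 to 38806 on adult valve arrays.

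The brighter Gja5 probe set and Gjc1 had lower mean levels in the adult valve, without a call. Gja5 (1368473_at) had 1339, 3399 and 1333 on the neonatal and 1186, 1087 and 1078 on the adult valve arrays. The groups were separate, with neonatal valve 2 well above the rest (-0.71 ± 0.60, limma adjusted p = 0.50). The dimmer Gja5 probe set, 1387207_at, read no more than 33.0 on any valve array, within the range of absent control RNAs (0.18 ± 0.76, limma adjusted p = 0.91). Neonatal valve 2 also had the highest signal of Nppa, an atrial natriuretic peptide gene, among neonatal valve arrays (20377, against 3848 and 12448). Among the other cardiac muscle markers on the array, Myh7, Myl2 and Myl3 were lowest there in this group (1335, 1569 and 192) and the rest highest. Adult valve 2 had 19398 of Nppa and a Gja5 signal of 1087. The part of heart muscle in the Gja5 signals was not tested. Gjc1 had 3269, 1900 and 1571 on the neonatal and 1566, 1193 and 1650 on the adult valve arrays, which overlapped (-0.55 ± 0.30, limma adjusted p = 0.26). Cardiac muscle markers summed to 110309 to 127990 on neonatal and 5904 to 108425 on adult valve arrays.

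The age difference in the valve was set against that in the aorta in 1 contrast. No connexin probe set was called there by limma (2 of 7 had an unadjusted p under 0.05), and 0.0593% of all tested were (0.0485% higher and 0.0108% lower). For Gja4 the age difference was 2.46 ± 0.52 higher in the valve than in the aorta (limma adjusted p = 0.11). For Gja1 1372002_at it was 0.66 ± 0.30 lower in the valve, as a signed difference of -0.66 (limma adjusted p = 0.42). The remaining 5 had adjusted p-values of 0.45 to 0.95.

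**Figure D2:**
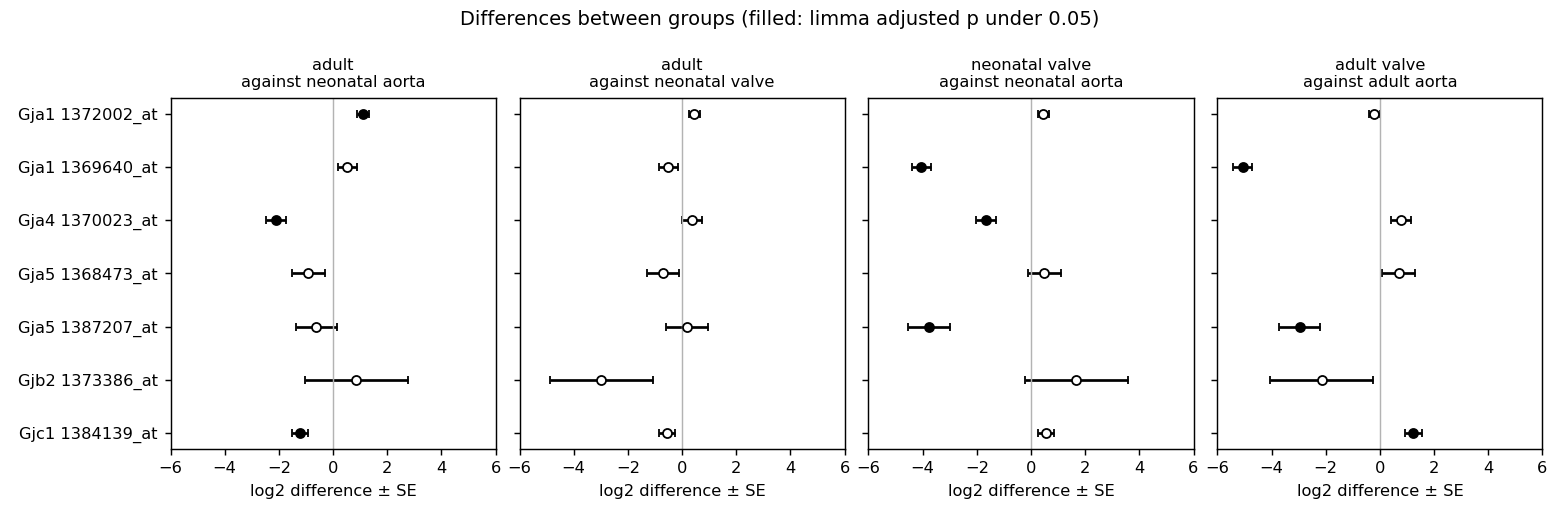
Log2 difference ± SE of the 7 tested connexin probe sets in the 4 comparisons of 2 groups (n = 3 arrays in each). Filled points passed at a limma adjusted p under 0.05. The Gja1 probe sets lie at 0.45 and -4.05 between the neonatal tissues and at -0.20 and -5.07 between the adult tissues. Gja1 1369640_at and Gja5 1387207_at passed the filter through aorta arrays only.

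Between valve and aorta the connexins showed 3 calls at each age, and in Gja1 and Gja5 the answer depended on the probe set. At both ages the calls included Gja1 1369640_at and Gja5 1387207_at, which passed the filter through aorta arrays only. The counts are therefore descriptions and are not read against the shares of all probe sets. The remaining call was Gja4 in newborns and Gjc1 in adults. In newborns 3 of the 7 were lower in the valve and 0 higher, against 32.6% of all probe sets called (13.3% higher and 19.3% lower). The groups of 4 of the 7 did not overlap, against 59.7% of all tested. In adults 2 were lower and 1 higher in the valve, against 37.1% called (17.3% higher and 19.9% lower). The groups of 3 did not overlap, against 44.3% of all tested. These comparisons and those by age use the same arrays in part, and the values stand side by side. Every valve array also differed from every aorta array in Xist signal and in the 3' to 5' ratio of beta-actin. Tissue therefore cannot be told apart from sex or transcript coverage for any connexin here, Gja4 and Gjc1 included.

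Gja4 was lower in the newborn valve than in the newborn aorta. The neonatal signals given above, 413 to 881 in valve and 1756 to 2024 in aorta, did not overlap (-1.67 ± 0.37 SE, a 3.19-fold difference, limma adjusted p = 0.006). With the control RNA term the difference was -1.62 (limma adjusted p = 0.10). In adults the order was turned, with 533 to 905 in valve and 253 to 633 in aorta. Those groups overlapped, and the difference of 0.79 ± 0.37 did not pass (limma adjusted p = 0.12). It passed with each array centred on its median (1.18, limma adjusted p = 0.034). Ordered by mean, Gja4 was highest in neonatal aorta, followed by adult valve, neonatal valve and adult aorta, and the last 3 overlapped with their neighbours in this order.

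Gjc1 was 2.36-fold higher in the adult valve than in the adult aorta (1.24 ± 0.30 SE, limma adjusted p = 0.008). The adult valve arrays read 1193 to 1650 and the adult aorta arrays 461 to 824, with no overlap. The call held without adult aorta 1 (1.03 ± 0.30, limma adjusted p = 0.022). In newborns the valve arrays read 1571 to 3269 and the aorta arrays 1289 to 1631, and the difference of 0.56 ± 0.30 did not pass (limma adjusted p = 0.17). The order by mean was neonatal valve, adult valve, neonatal aorta and adult aorta, where only the last was separate from its neighbour.

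The probe sets of Gja1 went apart between the tissues. By 1372002_at the newborn valve was higher than the newborn aorta by 0.45 ± 0.21 (limma adjusted p = 0.12), and the adult valve lower than the adult aorta by a difference of -0.20 ± 0.21 (adjusted p = 0.47). The first passed with quantile normalization (0.90, limma adjusted p = 0.0054) and with arrays centred on the median (0.79, adjusted p = 0.026), and the second turned to 0.46 and 0.19, so the direction in adults depended on the scaling. Ordered by mean, this probe set was highest in adult aorta, followed by adult valve, neonatal valve and neonatal aorta, and only the first neighbours overlapped. By 1369640_at the valve was lower at both ages. That probe set had 95.3, 60.3 and 56.2 on the neonatal valve arrays and 33.7, 54.1 and 61.6 on the adult valve arrays, all under the threshold, while the 6 aorta arrays had 886 to 2478. The differences were -4.05 ± 0.35 in newborns and -5.07 ± 0.35 in adults (limma adjusted p = 4.6e-05 and 1.7e-05). These valve signals were at or near what absent control RNAs gave, and the differences are not exact folds. With log2 of the signal plus 32 the differences were -3.53 and -4.36.

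The Gja5 probe sets showed the same split. By 1368473_at the valve differed from the aorta by 0.49 ± 0.60 in newborns and 0.70 ± 0.60 in adults, with overlapping groups at both ages (limma adjusted p = 0.56 and 0.39). Without adult aorta 1 the adult difference was -0.13. By 1387207_at it differed by -3.76 ± 0.76 and -2.96 ± 0.76 (limma adjusted p = 0.0038 and 0.011). The valve arrays had 6.34, 33.0 and 14.0 in newborns and 8.90, 15.8 and 30.3 in adults, all at the level of absent control RNAs. With log2 of the signal plus 32 the differences were -2.23 and -1.69. With the control RNA term the newborn difference was -3.74 (limma adjusted p = 0.075). This probe set passed the filter on 3 arrays and 1369640_at on 6, all of aorta, so their calls between tissues are given as descriptions.

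Set against each other on the same array, the probe sets of a gene kept different ratios in the 2 tissues. The log2 ratio of Gja1 1372002_at over 1369640_at averaged 3.25 ± 0.59 (SD, n = 6) in aorta and 7.93 ± 0.64 (n = 6) in valve. The lowest valve array (7.16) lay above the highest aorta array (4.25). For Gja5 1368473_at over 1387207_at the ratio averaged 2.59 ± 0.55 in aorta and 6.55 ± 0.87 in valve, also with no overlap. These ratios are descriptions with no test, since the dimmer probe set of each gene was under the threshold on every valve array and the ratio there has no exact size. The 3' over 5' ratio of beta-actin moved with them, at 0.73 ± 0.33 in log2 in aorta and 3.31 ± 0.38 in valve. That of GAPDH, a second housekeeping gene, was 0.0028 ± 0.12 and 1.54 ± 0.53. The part of transcript coverage in these ratios was not tested, since the place of each probe set along its transcript was not used here. Tissue cannot be told apart from coverage in this design, as every valve array had the higher ratio. The uneven coverage was also present in dap, an added bacterial control RNA that does not come from the tissue. On valve arrays its 3' probe set read 4363 to 13879 and its 5' probe set 228 to 693. On neonatal aorta 1 and the adult aorta arrays they read 1799 to 3649 and 769 to 2168.

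**Figure D3:**
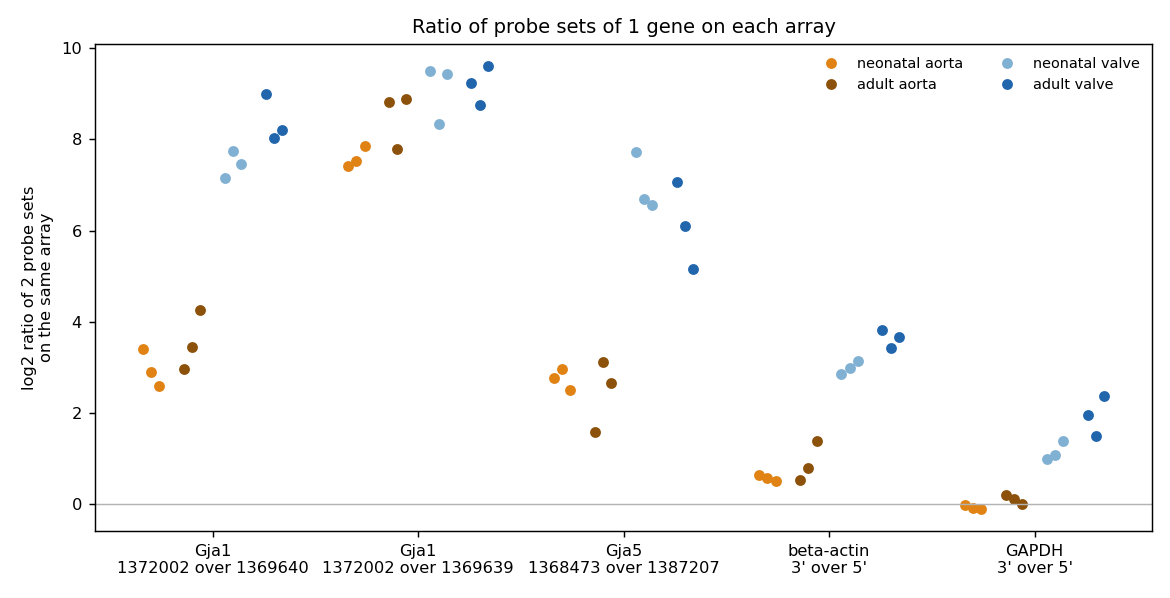
Log2 ratio of 2 probe sets of 1 gene on the same array, for Gja1, Gja5 and the 2 housekeeping controls, with 1 point per array coloured by group. The Gja1 probe set 1369639_at was under the threshold on all 12 arrays. In Gja1 (1372002_at over 1369640_at) and Gja5 the 6 valve arrays lie above the 6 aorta arrays, with means of 7.93 against 3.25 and 6.55 against 2.59, as do the 3' over 5' ratios of beta-actin and GAPDH.

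Probe sets of 1 gene often gave different answers between tissues. The gaps of Gja1 and Gja5 there have no exact size, since their dimmer probe sets were under the threshold on every valve array. They are given as descriptions. Among 2748 genes with at least 2 tested probe sets, 54.2% had some but not all called between the newborn tissues, and 8.73% had calls in opposite directions. The gap between the highest and lowest difference of a gene had a median of 1.32, beside 4.50 for Gja1 and 4.26 for Gja5. Between the adult tissues the median was 1.40, with gaps of 4.87 for Gja1 and 3.66 for Gja5. By age in the aorta the median gap was 0.39, and Gja1 and Gja5 had 0.59 and 0.29.

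Gjb2, the epithelial connexin 26 gene, varied more within groups than between them. Neonatal aorta 1, 2 and 3 had 218, 2115 and 17.7, and adult aorta 1, 2 and 3 had 5642, 60.5 and 140. Neonatal valve 1, 2 and 3 had 294, 225 and 3971, and the adult valve arrays had 95.7, 41.9 and 135. Single arrays of 3 groups stood at 2115 or more, the other 9 arrays at or under 294. No comparison was called (SE 1.90, limma adjusted p = 0.35 to 0.84), although the neonatal and adult valve groups did not overlap (-2.98). Without those 3 arrays, a choice made after the data were seen, the differences were 0.57 in the aorta and -1.66 in the valve by age, and 2.05 and -0.18 between newborn and adult tissues.

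The 3 arrays bright for Gjb2 also stood apart in markers of other tissues. Adult valve 1, with a Gjb2 signal of 95.7, stood apart in mesothelium markers (4 of 5 listed genes on the array). Their sum there was 7738, against 479 to 3302 elsewhere. Adult aorta 1 and neonatal aorta 2 had the highest sums of squamous epithelium markers, and all 9 of those on the array were above the threshold there. Krt13, a keratin of stratified epithelium, read 37297 and 21012 on these arrays and 20.4 to 2009 on the others. Neonatal valve 3 had a squamous sum of 8245, within the range of neonatal valve arrays (to 11927), and a Krt13 signal of 48.1. Krt5, a basal epithelial keratin, read 1030 there against 154 and 241 on the other neonatal valve arrays, and Cd8a, a T cell coreceptor gene, 6472 against 438 and 59.0. The part of these tissues in the Gjb2 signal was not tested.

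**Figure D4:**
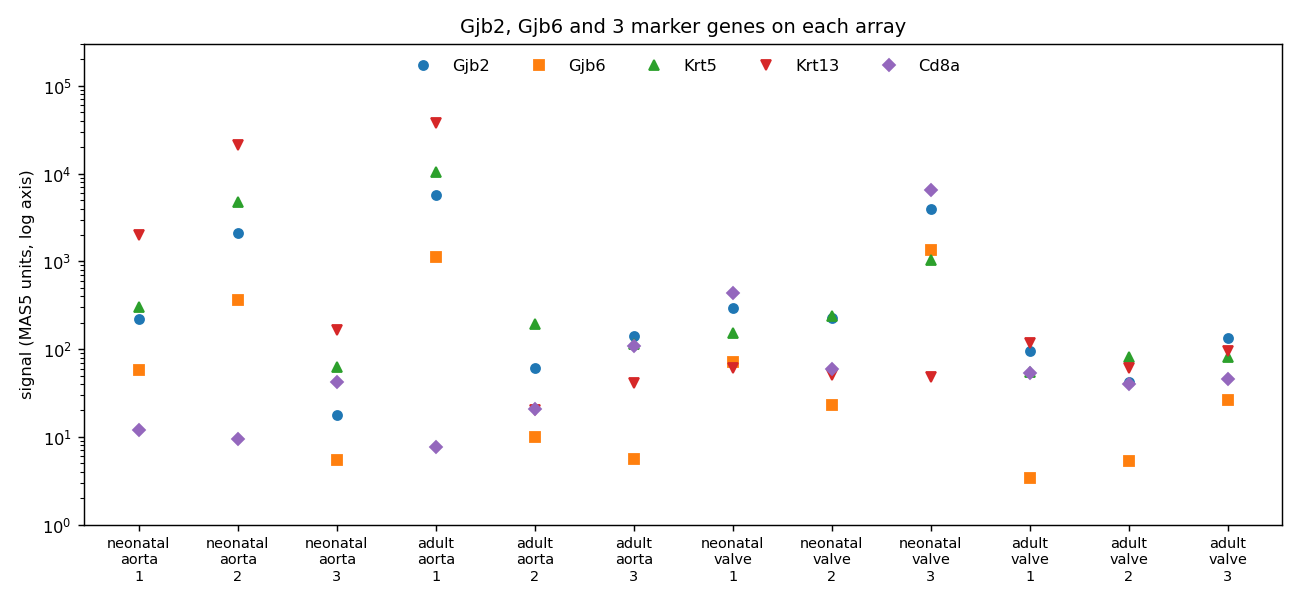
Signal in MAS5 units (log axis) of Gjb2, Gjb6, the keratin genes Krt5 and Krt13 and the T cell gene Cd8a on each of the 12 arrays. Gjb2 and Gjb6 are both highest on neonatal aorta 2, adult aorta 1 and neonatal valve 3 (Gjb2 2115, 5642 and 3971), while Krt13 is high on the first 2 of these and Cd8a on the third.

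The genes with the profiles most like each connexin were found by the root mean square difference in log2 between centred profiles over 12 arrays, among 10410 other genes. For Gjb2 they were Gjb6, its frequent partner in epithelia (1.02), Krt5 (1.11) and Col17a1, a hemidesmosome collagen of basal epithelium (1.32), against a median of 2.57 over all genes. Gjb6 had 1117 on adult aorta 1, 367 on neonatal aorta 2 and 1341 on neonatal valve 3, and 3.37 to 71.5 on the other 9 arrays. For Gja4 they were Apoc3 (0.40), an apolipoprotein gene, Cox6b2 (0.43), a subunit gene of cytochrome oxidase, and Zdhhc14 (0.44), a palmitoyltransferase gene, against a median of 1.04. Apoc3 passed the filter through the neonatal aorta arrays alone (214 to 298) and read 24.5 to 156 on the other arrays. For Gja1 the genes were Nipal2 (0.20), Mettl8 (0.23) and the late endosome GTPase gene Rab7a (0.23), against 0.78. For Gja5 they were Fam151b (0.42), Zcchc12 (0.44) and Dnaaf9 (0.44), against 1.01, and for Gjc1 Arl10 (0.27), Glmn (0.28) and Prrg3 (0.28), against 0.92. These are descriptions of 12 shared arrays, with no test.

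Of 18 other connexin and pannexin genes, 8 were on the array and 3 were tested, by the probe set with the highest mean of each gene. None of the 3 was called by limma in any comparison (1 had an unadjusted p under 0.05 in the valve by age). That one was Gja3, the lens connexin 46, with 878, 633 and 430 on the neonatal valve arrays and 124, 584 and 12.9 on the adult ones (-2.66 ± 1.10, limma adjusted p = 0.15). Its groups overlapped through adult valve 2, which also had the highest sum of cardiac muscle markers among adult valve arrays (108425, against 5904 and 18900). The part of heart muscle in the Gja3 signal was not tested. The dimmer Gja3 probe set did not pass the filter. It read 67.5 to 72.1 on the neonatal and 24.2 to 55.2 on the adult valve arrays, without overlap, and 55.2 was the signal of adult valve 2. Panx1, which encodes a channel protein that does not form gap junctions in most cells, read 40.9 to 447 over the 12 arrays, with differences from -0.29 to 0.33 in the 4 comparisons of 2 groups. Those of Gjb6, which passed the filter through the 3 arrays bright for Gjb2 alone, ran from -4.06 to 1.41, each with an SE of 2.22. Its adult valve signals of 3.37 to 26.4 were within the range of absent control RNAs, so -4.06 is not an exact size. Gja6, Gjb1, Gjb5, Gjd2 and Panx3 did not pass the filter.

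Among 28 listed partners and regulators of gap junctions, 24 were on the array and 23 were tested. In the aorta by age 1 fell and 0 rose (median 0.12): Dbn1, drebrin, an actin-binding protein that holds connexin 43 at the membrane, by -1.81 ± 0.34 (limma adjusted p = 0.0099). In the valve by age 1 fell and 0 rose (median -0.33): Nkx2-5, a cardiac transcription factor gene, by -2.05 ± 0.56 (limma adjusted p = 0.046). In the newborn valve against aorta 4 were higher and 1 lower (median 0.28). Those of smallest p were Pkp2, a desmosomal plakophilin of the intercalated disc (2.83 ± 0.46), the casein kinase gene Csnk1d (0.89 ± 0.20), Tjp1, the scaffold ZO-1 that binds connexin tails (0.69 ± 0.17), and Dbn1 (-1.21 ± 0.34). In the adult valve against aorta 6 were higher and 2 lower (median 0.30), led by Csnk1d (1.14 ± 0.20), the T-box repressor gene Tbx3 (lower), Pkp2 (2.04 ± 0.46) and Tjp1 (0.67 ± 0.17). The limma adjusted p-values of these were 0.0013 to 0.018. The Tbx3 probe set had a mean log2 signal of 7.63 in adult aorta and 4.94 in adult valve, the latter within the range of absent control RNAs, and no size is given for its difference. The shares called by age, 1 of 23 in each tissue, were below the 7.31% and 9.21% of all probe sets tested. Between tissues 5 of 23 in newborns and 8 of 23 in adults stood beside 32.6% and 37.1% of all, a share below the background in newborns and near it in adults. Of the cardiac muscle markers, 6 of 11 were called higher in adult valve than in adult aorta (median 4.22), beside 17.3% of all probe sets. In newborns 1 of 11, Nppa, was called higher (median 1.02), beside 13.3% of all. Myl4 and Myl7 were lower in the newborn valve (-0.16 and -0.38) and the rest higher, without a call. The part of these markers in the Pkp2 difference was not tested. No partner was called for the contrast of both age differences by limma.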

How the data were processed

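The deposited table holds a linear signal intensity for each probe set. The submitters' processing notes name Affymetrix Expression Console and MAS5, without versions. With 2% trimmed from both ends, array means were 500.1 to 500.2. Of 31099 probe sets, 57 controls were left out. Gene symbols came from the platform's probe table, 20826 probe sets with 1 symbol, 436 with several and 9780 with none. Of those with 1 symbol, 20758 had a gene ID in the reference, and its current symbol was used. Signals under 1 were raised to 1 before taking log2, and arrays were not normalized further. Probe sets above 171.9 (the median of all non-control values) on at least 3 of 12 arrays were tested, 18552 in all.

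A model with 1 mean per group (3 arrays each, 8 residual degrees of freedom) was fitted with limma 3.58.1 in R 4.3.3 (lmFit, eBayes with an intensity trend), with p-values adjusted by Benjamini and Hochberg over all tested probe sets, two-sided. The fit was tested on simulated data. Precision is limited by the number of arrays. Spearman correlations within groups were 0.813 to 0.959. Named were every member probe set, other connexins that passed the filter, up to 4 called junction partners per comparison, and 3 genes of most similar profile per member. Listed genes are represented by their brightest probe set on average. Members, lists and rules were chosen with earlier results of these data known. Lists were described by counts and medians, with no set test.

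Alternatives were log2 of the signal plus 32, quantile normalization, centring on the array median, no filter, a filter on 6 arrays, no intensity trend, groups by the tissue entry, a replicate block, a control RNA term, a fit to only the 2 groups compared, and leaving out each array. Leaving out 3 arrays together was added after seeing the data.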

Additional observations from a re-analysis of the deposited data

How the results depend on the processing

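With groups taken from the tissue entry, which the Acta2 signals above do not follow, adult aorta and neonatal valve trade places. Counts of called connexin probe sets were then 3 in the valve by age and 0 between the adult tissues, in place of 0 and 3. Many differences changed sign with it. In the aorta by age they were 0.49 for Gja5 1368473_at, -4.05 for Gja1 1369640_at and 0.56 for Gjc1. In the valve by age they were 0.70 for Gja5 1368473_at, -0.20 for Gja1 1372002_at, 1.24 for Gjc1 and -2.96 for Gja5 1387207_at. Between newborn tissues they were -0.91 for Gja5 1368473_at, 0.52 for Gja1 1369640_at and -1.23 for Gjc1. Between adult tissues they were -0.71 for Gja5 1368473_at, 0.45 for Gja1 1372002_at, -0.55 for Gjc1 and 0.18 for Gja5 1387207_at. The control RNA term left 0 called in the aorta by age and 1 between newborn tissues. A fit to only the 2 groups compared called 1 in the aorta by age, as did leaving out the 3 arrays brightest for Gjb2 (chosen after the data were seen), where Gja5 1368473_at turned to -0.13 between adult tissues and to -0.74 for the contrast of both age differences. Gja1 1372002_at turned to 0.46 (quantile) and 0.19 (centred) between adult tissues.

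Leaving out 1 array at a time gave 1 to 3 called in the aorta by age. Differences ranged from -1.13 to 2.55 for Gjb2 in the aorta by age and from -0.083 to 3.37 between newborn tissues. For Gja5 1368473_at they ranged from -0.13 to 1.31 between adult tissues and from -0.63 to 0.82 for the contrast of both age differences, and for Gja5 1387207_at from -0.41 to 0.78 in the valve by age. Over these settings, 48 of 54 values of called differences kept sign and call, and 6 lost the call. Same-numbered replicates of different groups deviated together in 3 of 18 pairs (correlation over 0.1; range -0.31 to 0.24), so the numbers were not taken as pairs. The replicate block took the Gjc1 call in the aorta by age (-1.23, limma adjusted p = 0.052, 2 called in place of 3) and no other connexin call. Counts over all probe sets moved from 1357 to 69 (control RNA term), 811 (2 groups) and 431 to 2485 (1 array left out) in the aorta by age, from 1709 to between 662 and 1514 (1 array left out) in the valve by age, from 6043 to 1416 (control RNA term) between newborn and from 6891 to 3646 (2 groups) between adult tissues. For the contrast of both age differences they moved from 11 to 4 (6-array filter), 7 (no trend) and 1 to 37 (1 array left out). The cause was not tested. Signals near those of absent control RNAs limit the valve values of Gja1 1369640_at and Gja5 1387207_at.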
